A study of Mus musculus with 6 samples.

Results

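Transcripts of glycolysis and of the pentose phosphate pathway were followed in mouse B cells before and after activation through TLR9. The 40 genes were given as a list of glucose transporters, glycolytic enzymes, lactate enzymes and transporters, pyruvate dehydrogenase subunits and kinases, and pentose phosphate enzymes. All 40 symbols were among the 23420 genes of the deposited files. Of these 40, 36 passed the filter on low values, as did 11233 genes overall. It asked for a value above -0.76 log2 CPM in at least 3 samples (CPM being read counts scaled to a common library size). This limit corresponds to about 10 reads. By its third-highest value, which decides the filter, Pfkm was nearest on the inner side, with values of 0.51 to 1.23 over the 6 samples. Pdk2 passed through the unstimulated samples, in which it was high, and exceeded the limit in only 2 of the 3 CpG-stimulated samples. Nearest on the outer side was Hk3, whose highest value was -1.79, and Eno1, Ldhb and Pdk4 were also below it.

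B cells were purified with beads from the spleens of 3 WT BALB/c mice aged 7 to 11 weeks, and cultured for 4 hours at 10000000 cells per mL with 10 μg/mL of CpG ODN 1826 or without stimulation. CpG ODN 1826 is a synthetic DNA oligonucleotide that activates TLR9, the endosomal receptor for DNA. There were 3 CpG-stimulated and 3 unstimulated samples with replicate numbers 1 to 3, and replicate 3 came from males in both groups, the others from females. No allele was altered in either group, and the labels do not state which mouse gave which sample, so p values measure the spread between these samples.

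Glycolysis splits glucose into pyruvate and yields ATP without oxygen. Glucose enters through SLC2A (GLUT) transporters, is trapped by hexokinase, is committed by phosphofructokinase, and leaves as lactate through lactate dehydrogenase and the SLC16A (MCT) carriers, unless pyruvate dehydrogenase feeds it to the mitochondria. The pentose phosphate pathway draws on the same glucose 6-phosphate: its oxidative arm makes NADPH and its non-oxidative arm makes ribose 5-phosphate for nucleotides. Resting lymphocytes consume little glucose, and B cells that are activated raise both glucose uptake and lactate release.

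As the authors quantile normalized the samples to each other, their sums were alike (992384 to 1012396 CPM), and depth per sample cannot be read from them. The level of a gene without reads, -5.152, corresponds to a library of about 17800000 reads. Less RNA per cell and fewer cells of a type cannot be told apart in these bulk samples. The 9 B cell markers had a median of 8.77 log2 CPM over the 6 samples. CpG increased 3 of them (33.3%, against 37.6% of all tested genes) and decreased 5 (55.6%, against 36.7%). Their sums were 3114 to 3551 CPM in stimulated against 4355 to 4977 CPM in unstimulated samples. Of 7 T cell, 4 NK cell, 3 plasmacytoid dendritic cell, 6 myeloid and 4 platelet markers found, 0, 0, 1, 3 and 4 exceeded 10 reads on average. Summed over each list in CpG-stimulated against unstimulated samples, they made up 0.536 to 0.650 against 0.443 to 0.638 CPM for T cells, with Trat1 at the level of no reads throughout. For NK cells the sums were 0.720 to 1.33 against 0.123 to 0.134 CPM, carried by Klrb1c (mean -0.13 and -4.65 log2 CPM), with Nkg7 at the level of no reads throughout, and for plasmacytoid dendritic cells 0.910 to 1.28 against 1.51 to 2.11. Myeloid markers summed to 9.75 to 15.4 against 6.74 to 13.0 CPM, and platelet markers to 5.93 to 6.72 against 6.62 to 9.77. Erythroid markers (8 of 10 found, 6 tested, 0 past the FDR) summed to 384 to 613 CPM in replicates 1 and 3 of both groups, but to 4916 and 3849 CPM in replicate 2 of the CpG-stimulated and unstimulated samples, with Hba-a1 and Hba-a2 at the level of no reads in all samples. The part of these cells in the values below was not tested.

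Members of the pathway changed in both directions. Hexokinase 2, the lactate exporter Slc16a1, lactate dehydrogenase A, the transporter Slc2a6 and enzymes of both pentose phosphate arms were among those increased. Among those decreased were the transporters Slc2a1 and Slc2a3, hexokinase 1, Pfkfb4, Aldoc, the pyruvate dehydrogenase kinase Pdk2 and the pentose phosphate enzyme Taldo1. With an FDR under 0.05 from limma (a linear model per gene across all 11233 genes, CpG-stimulated against unstimulated), 18 members were increased and 11 decreased, and 7 did not pass. The same rule called 37.6% of all tested genes increased and 36.7% decreased, against 50% and 30.6% of the 36 members. At the larger change of a log2FC over 1, 5 members were increased (background 15.8%), and 3 had a log2FC under -1 (background 15.3%), or 13.9% and 8.33% of the members. Groups did not overlap in 34 members, 94.4% of those tested, where 77.7% of all tested genes did not overlap. The stimulated samples were higher in 19 of these (background 39.1%) and lower in 15 (background 38.6%). The median log2FC was 0.16 in the members and 0.0033 in all tested genes, and the median size of a change, either way, was 0.53 and 0.64. The median standard error (SE) was 0.074 in the members and 0.10 in all tested genes, so smaller changes can pass in the members. Without replicate 2 in both groups, which carried the erythroid markers, 16 members were increased and 12 decreased (background 36.6% and 35.2%).

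**Figure D1:**
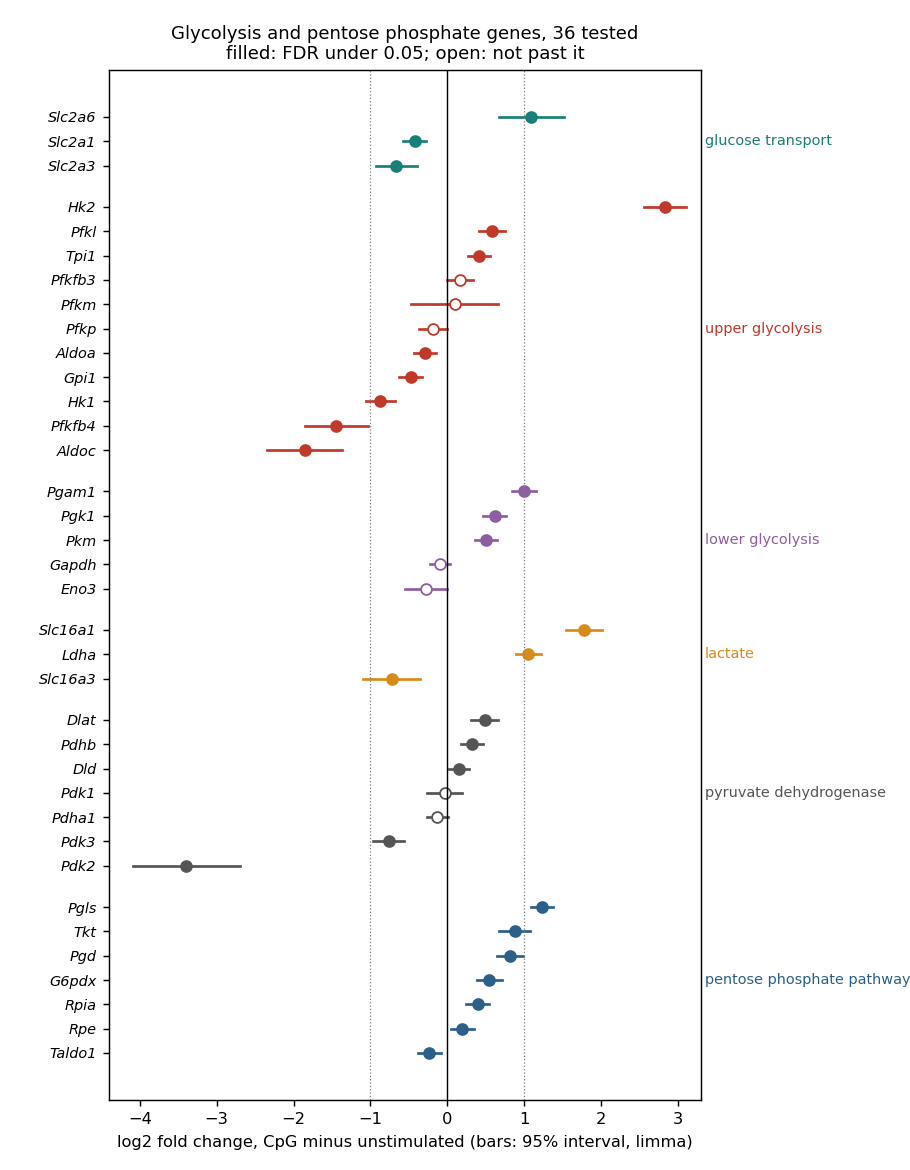
Log2 fold change of CpG-stimulated minus unstimulated B cells (horizontal axis) for the 36 tested genes, grouped by role, with 95% intervals from limma (bars); filled points passed an FDR of 0.05 and dotted lines mark a log2FC of 1 in either direction. Hk2 is farthest to the right at 2.84 and Pdk2 farthest to the left at -3.40, and 6 of 7 pentose phosphate genes lie to the right of 0. The median of all tested genes was 0.0033.

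At the point of glucose entry, 1 of 3 transporters was increased and 2 were decreased (background 37.6% and 36.7%). Slc2a1 encodes GLUT1, the main glucose transporter of lymphocytes, and read 7.25, 7.24 and 7.14 log2 CPM in unstimulated replicates 1 to 3 and 6.84, 6.83 and 6.69 in the CpG-stimulated ones. Every stimulated value was lower, with a log2FC of -0.42 (SE 0.07, FDR = 0.000217). Slc2a3, which encodes the high-affinity transporter GLUT3, fell from 6.42 ± 0.15 to 5.76 ± 0.25 (mean ± SD, n = 3 in each group), a log2FC of -0.66. Slc2a6 encodes GLUT6, a transporter of lysosomal membranes. It rose from 4.34, 4.74 and 4.80 to 5.36, 6.17 and 5.63, a log2FC of 1.095 (SE 0.19, FDR = 0.000433) with no overlap, and its largest value was in CpG-stimulated replicate 2. Its log2FC was under 1 without that sample (0.87), without unstimulated replicate 1 (0.95) and without replicate 2 in both groups (0.93). Slc2a6 lies on chromosome 2 of GRCm38 from 27021363 to 27027998.

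Hexokinase phosphorylates glucose and keeps it in the cell, and its measured isozymes moved in opposite directions. Hk2, the inducible form (chromosome 6, 82725025 to 82774454), read 5.80, 5.45 and 5.49 log2 CPM in unstimulated samples and 8.65, 8.21 and 8.39 after CpG. The groups lay far apart, and the log2FC of 2.84 (SE 0.12, FDR = 4.28e-08), or 7.16-fold, placed Hk2 at rank 126 of the 11233 genes ordered from the most increased. The log2FC was 2.85, 2.76 and 2.91 within replicate numbers 1, 2 and 3, and 2.72 to 2.95 with each sample left out in turn. Hk1, the constitutive form, went the other way, from 5.89, 5.66 and 5.81 to 4.995, 4.84 and 4.91, a log2FC of -0.87 (SE 0.08, FDR = 5.65e-06). The log2 ratio of Hk2 to Hk1 moved from -0.21 ± 0.12 to 3.501 ± 0.15 (SD, n = 3), a difference of 3.71 (SE 0.11). In an exact permutation test of 3 against 3 samples, this gave p = 0.1, the smallest that the design allows, and 0.133 after Benjamini-Hochberg adjustment over the 8 pairs of genes compared. The ratios of Slc2a1 to Slc2a3 (difference 0.24) and of Pfkp to Pfkm (-0.28) gave exact p = 0.3, and all others 0.1. On a scale of log2 CPM per kilobase of transcript, Hk2 stood 0.57 below Hk1 in resting cells (-0.57) and 3.14 above it after stimulation (-0.14 and 3.57 with the exons of all coding transcripts as the length). Hk3 stayed under the filter in all samples.

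Of the 11 tested genes of upper glycolysis, hexokinases included, 3 were increased and 5 decreased (background 37.6% and 36.7%). In its remaining steps, changes were mixed and smaller than that of Hk2, and 2 genes, Pfkfb4 and Aldoc, had a log2FC under -1. Phosphofructokinase catalyses the committed step, and its liver-type subunit Pfkl rose from 7.15, 7.07 and 7.21 to 7.84, 7.59 and 7.75 (log2FC 0.58, SE 0.07, FDR = 5.17e-05), every stimulated value above every resting one. The platelet-type subunit Pfkp read 7.25, 7.04 and 7.06 before and 7.01, 6.99 and 6.80 after, a log2FC of -0.18 (95% interval -0.36 to 0.0006) that did not pass (FDR = 0.0665), but did with the replicate block (0.0117) and without CpG-stimulated replicate 2 (0.0481). Pfkp shares sequence with Pitrm1 on the opposite strand, which holds 16.6% of its stretches of 75 bases. The log2 ratio of Pfkp to Pfkl moved from -0.03 ± 0.13 to -0.79 ± 0.17 (SD, n = 3), with exact p = 0.1. The muscle-type subunit Pfkm was low, at 0.93 ± 0.38 and 1.03 ± 0.22 (SD, n = 3), and its log2FC of 0.10 had an interval from -0.47 to 0.66.

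Fructose 2,6-bisphosphate, the activator of phosphofructokinase, is made and removed by the PFKFB enzymes. Pfkfb3, the form in which kinase activity most outweighs phosphatase activity, read 5.87, 5.81 and 5.91 without and 6.17, 5.98 and 5.94 with CpG. These groups did not overlap, but the log2FC of 0.17 (95% interval -0.0017 to 0.34) missed the FDR (0.0678) and passed it with the replicate block (0.0313). Pfkfb4 (chromosome 9, 108991778 to 109032228) was decreased from 2.72, 2.94 and 3.18 to 1.69, 1.59 and 1.22, a log2FC of -1.45 (SE 0.18, FDR = 4.63e-05), or 2.72-fold. Gpi1, which isomerizes glucose 6-phosphate, fell from 8.43 ± 0.10 to 7.95 ± 0.06 (SD, n = 3; log2FC -0.47), and Tpi1, which interconverts the triose phosphates, rose from 8.17 ± 0.07 to 8.58 ± 0.07 (log2FC 0.41).

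Aldolase cleaves fructose 1,6-bisphosphate. Aldoa, the form found in most tissues, read 9.69, 9.67 and 9.78 in resting and 9.37, 9.47 and 9.43 in stimulated cells, a log2FC of -0.29 (SE 0.06, FDR = 0.00194). Aldoc (chromosome 11, 78322968 to 78327781), known best from brain, fell from 2.13, 1.98 and 2.06 to 0.44, -0.12 and 0.27 without overlap. Its log2FC was -1.86 (SE 0.22, FDR = 2.57e-05), or 3.62-fold. Per kilobase, Aldoa exceeded Aldoc by 8.51 on the log2 scale in resting cells and by 10.07 after CpG, or by 7.63 and 9.20 when the exons of all coding transcripts were taken as the length.

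Of the 5 tested genes of lower glycolysis, the ATP-yielding part of the pathway, 3 were increased and 0 decreased (background 37.6% and 36.7%). Pgam1, which moves the phosphate of phosphoglycerate, rose from 7.05, 6.92 and 7.05 to 8.09, 8.03 and 7.89, a log2FC of 0.9987 (SE 0.07, FDR = 7.39e-07) and so just under 1; it was 0.95 to 1.06 with each sample left out. Pgk1, the first ATP-forming enzyme, rose from 8.12 ± 0.06 to 8.73 ± 0.09 (SD, n = 3; log2FC 0.62), and Pkm, the pyruvate kinase of lymphocytes, from 9.28 ± 0.06 to 9.78 ± 0.08 (log2FC 0.50). Gapdh, which is widely used as a reference gene, read 9.30, 9.21 and 9.21 without and 9.16, 9.15 and 9.12 with CpG. All stimulated values were lower, by so little that the log2FC of -0.10 (95% interval -0.23 to 0.03) did not pass (FDR = 0.159). Eno3, the muscle enolase, had a log2FC of -0.28 (FDR = 0.0638, and 0.0432 without CpG-stimulated replicate 3).

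Several of these genes have near-identical copies in the genome, which limits how their reads can be assigned. In the GENCODE M21 annotation, other genes held 80.3% of the 75-base stretches of Gapdh, 67.5% of those of Pgk1, 65.4% of those of Eno1 and 40.6% of those of Pgam1, while 21 of the 40 members shared no such stretch. Eno1, the main enolase of most cells, was listed at -3.64, -2.55 and -4.91 log2 CPM in unstimulated and -2.74, -3.62 and -3.32 in CpG-stimulated samples. All 6 values lie under -2.34, the level of about 3 reads taken as the limit of detection. The retrogene Eno1b, listed as Gm5506, shares most of these stretches with Eno1 and was at 6.26 ± 0.01 and 6.35 ± 0.04 (SD, n = 3; log2FC 0.10, FDR = 0.167). Reads of these genes cannot be told apart by the deposited values, so the level of Eno1 is uncertain. Gapdh and Pgk1, of which other genes held larger shares, had unstimulated means of 9.24 and 8.12 log2 CPM. Why Eno1 was listed so low was not tested.

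The lactate branch held some of the largest increases. Ldha, which reduces pyruvate to lactate (chromosome 7, 46841475 to 46855627), rose from 9.49, 9.41 and 9.49 to 10.63, 10.41 and 10.503 log2 CPM. The log2FC was 1.05 (SE 0.07, FDR = 5.81e-07), or 2.08-fold, and was 0.9953 without CpG-stimulated replicate 1. Ldhb, which encodes the subunit that favours pyruvate, was at the level of no reads: its values of -5.45, -4.69 and -5.32 were the same in both groups for each replicate number and averaged -5.152, the value of a gene without reads. Slc16a1 encodes MCT1, a proton-coupled carrier of lactate and pyruvate (chromosome 3, 104638668 to 104658462). It rose from 6.55, 6.38 and 6.24 to 8.38, 8.13 and 8.01, a log2FC of 1.78 (SE 0.11, FDR = 2.31e-07) or 3.43-fold, with 1.83, 1.74 and 1.76 in replicate numbers 1 to 3. Slc16a3, which encodes the low-affinity exporter MCT4, fell from 3.60, 3.48 and 3.44 to 2.78, 3.13 and 2.45, a log2FC of -0.73 (SE 0.17, FDR = 0.0027). The log2 ratio of Slc16a1 to Slc16a3 moved by 2.50 (SE 0.20, exact p = 0.1), and per kilobase Slc16a1 exceeded Slc16a3 by 2.85 before and 5.36 after stimulation.

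**Figure D2:**
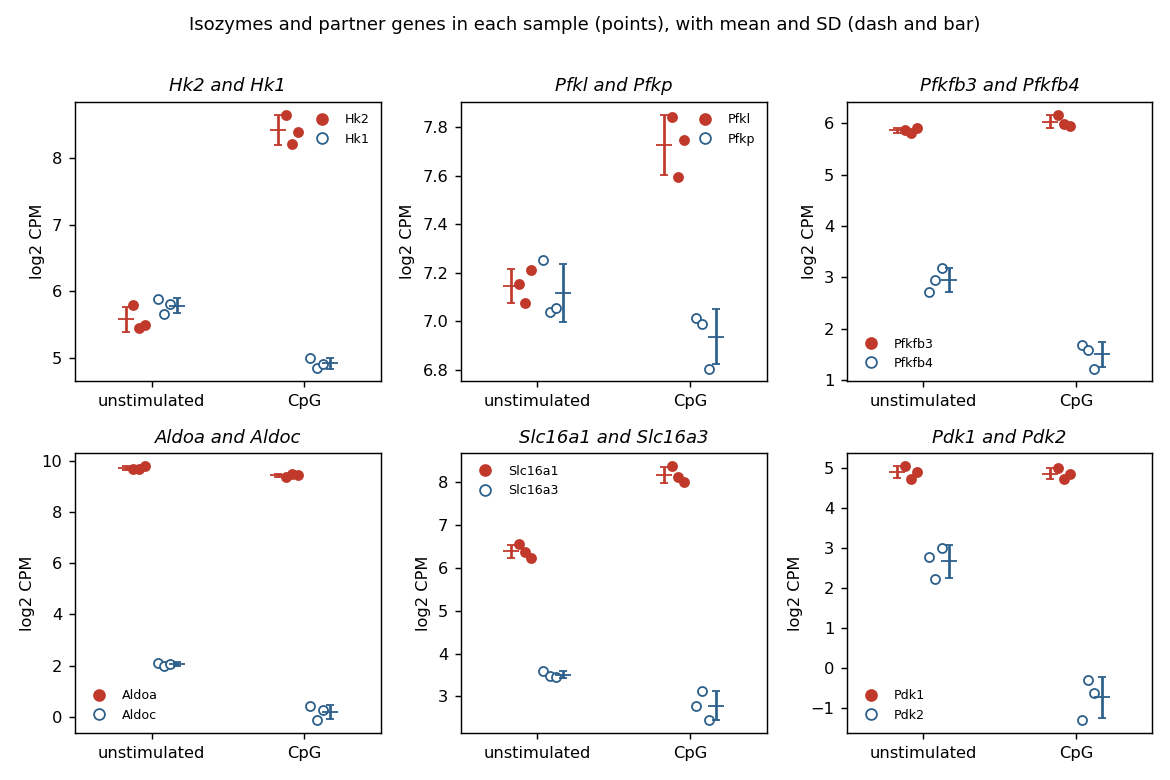
Log2 CPM (vertical axes, each panel on its own scale) of 6 pairs of isozymes or partner genes in the 3 unstimulated and 3 CpG-stimulated samples (points), with mean (dash) and SD (bar) beside them. Hk2 and Hk1 start near each other at 5.58 and 5.79 and end at 8.42 and 4.92, and Pdk2 drops from 2.66 to -0.74 while Pdk1 stays between 4.72 and 5.03.

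Pyruvate dehydrogenase converts pyruvate to acetyl-CoA in mitochondria and is switched off by its kinases. Among the kinases, Pdk2 (chromosome 11, 95026258 to 95041354) read 2.76, 2.21 and 3.001 log2 CPM in unstimulated and -1.31, -0.29 and -0.62 in CpG-stimulated cells. The groups lay apart, with a log2FC of -3.40 (SE 0.31, FDR = 4.49e-06, and 6.88e-05 when no filter was used). As its stimulated values lie around 10 reads, the size of this decrease depends on the scale and was -2.18 on log2(CPM + 1). With 10 reads asked for in every sample Pdk2 was not tested, and 10 members were decreased in place of 11. Pdk3 fell from 5.14, 5.13 and 4.96 to 4.38, 4.36 and 4.20 (log2FC -0.76, SE 0.09, FDR = 2.6e-05). Pdk1, a target of the hypoxia factor HIF1, read 5.03, 4.72 and 4.898 without and 4.99, 4.73 and 4.84 with CpG. These groups overlapped, with an interval of the log2FC from -0.26 to 0.20. Pdk4 was under the filter. The log2 ratio of Pdk1 to Pdk2 moved by 3.36 (SE 0.42, exact p = 0.1).

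Subunits of the complex itself changed little. Dlat, the acetyltransferase core, rose from 5.32 ± 0.12 to 5.81 ± 0.04 (SD, n = 3; log2FC 0.49), and Pdhb, the beta subunit of the decarboxylase, from 6.09 ± 0.06 to 6.41 ± 0.0036 (log2FC 0.32). Dld, the dehydrogenase that other complexes share, had a log2FC of 0.16 (FDR = 0.0295). It did not pass without CpG-stimulated replicate 3 (0.0785), nor without unstimulated replicate 1, 2 or 3 (0.0548, 0.11 and 0.0553), nor without replicate 2 in both groups (0.12). Pdha1, the alpha subunit, had a log2FC of -0.13 (95% interval -0.26 to 0.0093, FDR = 0.0831), and 13.9% of its stretches lie in Map3k15, which overlaps it on the opposite strand.

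In the pentose phosphate pathway, 6 of 7 genes were increased and 1 was decreased (background 37.6% and 36.7% of all tested genes). In the oxidative arm, G6pdx, the rate-limiting dehydrogenase, rose from 5.40, 5.31 and 5.34 to 5.995, 5.80 and 5.89 (log2FC 0.55, SE 0.07, FDR = 7.19e-05). Pgls, the lactonase that follows it (chromosome 8, 71592176 to 71601092), rose most, from 6.53, 6.41 and 6.43 to 7.62, 7.74 and 7.71. Its log2FC was 1.23 (SE 0.06, FDR = 9.32e-08), or 2.35-fold. Pgd, the second NADPH-forming dehydrogenase, rose from 6.69 ± 0.04 to 7.51 ± 0.13 (SD, n = 3; log2FC 0.82).

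In the non-oxidative arm, Tkt, the transketolase that links pentoses back to glycolysis, rose from 7.59, 7.34 and 7.40 to 8.44, 8.15 and 8.39 (log2FC 0.88, SE 0.09, FDR = 1.02e-05). Rpia, which forms ribose 5-phosphate, had a log2FC of 0.40 (FDR = 0.000402), from 6.62 ± 0.04 to 7.02 ± 0.10 (SD, n = 3). Taldo1, the transaldolase, was the exception and fell from 6.42 ± 0.06 to 6.19 ± 0.07 (log2FC -0.23, FDR = 0.00998). Rpe, the epimerase, had a log2FC of 0.20 (FDR = 0.0221), which did not pass without CpG-stimulated replicate 1 (0.0581), unstimulated replicate 1 (0.0653) or 2 (0.0719), or replicate 2 in both groups (0.0787). Kansl1l, on the opposite strand, holds 18.3% of the stretches of Rpe.

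Compared per kilobase of the longest coding transcript, Ldha became the highest of the 36 tested members. In resting cells Aldoa, Gapdh and Ldha were at 9.08, 8.73 and 8.60 log2 CPM per kb, and after CpG they were at 8.79, 8.64 and 9.66. Pkm followed at 7.997 before and 8.50 after, and Pgls overtook Gpi1, from 6.37 against 6.90 to 7.60 against 6.42. Slc2a1 stayed above the other glucose transporters of the list, at 5.50 in resting and 5.08 in stimulated cells, with Slc2a6 at 3.53 and 4.62 and Slc2a3 at 4.43 and 3.77. With the exons of all coding transcripts as the length, Ldha was again highest after CpG, at 9.12, but Gapdh (8.35) and not Aldoa (8.11) was highest in resting cells, ahead of Ldha (8.07). As genes with copies lose or share reads, the places of Gapdh, Pgk1 and Pgam1 in this order are less certain. Eno1, whose level is uncertain, was under the filter and is not in it.

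**Figure D3:**
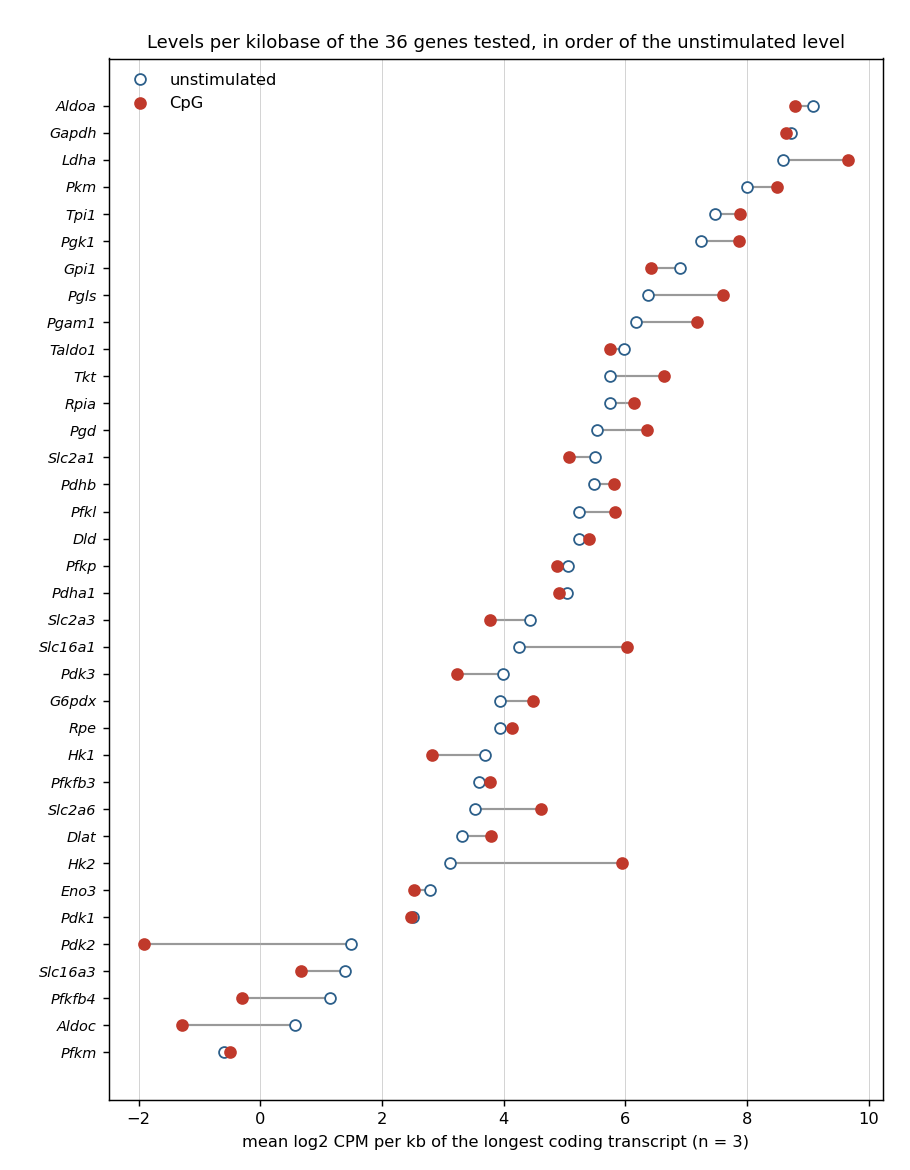
Mean log2 CPM per kilobase of the longest coding transcript (horizontal axis, n = 3 samples a group) of the 36 tested genes, ordered by the unstimulated level (open points) with the CpG-stimulated level beside it (filled points). Ldha moves from 8.60 to 9.66, the highest of the 36, and Hk2 from 3.11 to 5.95.

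Summed over genes, the reads of the pathway took a larger share of the libraries after CpG, as a description without a test. The 18 glycolytic enzymes with lactate dehydrogenase summed to 4296, 4056 and 4275 CPM in resting and 5890, 5494 and 5522 CPM in stimulated samples, a ratio of means of 1.34. Leaving Ldha out, the ratio was 1.19. Both sums took Eno1 at its listed level, under that of about 3 reads in all samples. Hexokinases rose from a sum of 103.5 to 374.9 CPM, and enzymes of the oxidative and non-oxidative pentose phosphate arms from 232 to 448.6 and from 400.3 to 571.7 CPM, ratios of 1.93 and 1.43. Pyruvate dehydrogenase subunits differed by a ratio of 1.12 and their kinases by 0.708. Glucose transporters summed to 246 to 266 CPM before and 200 to 251 CPM after, where the groups overlapped through CpG-stimulated replicate 2.

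**Figure D4:**
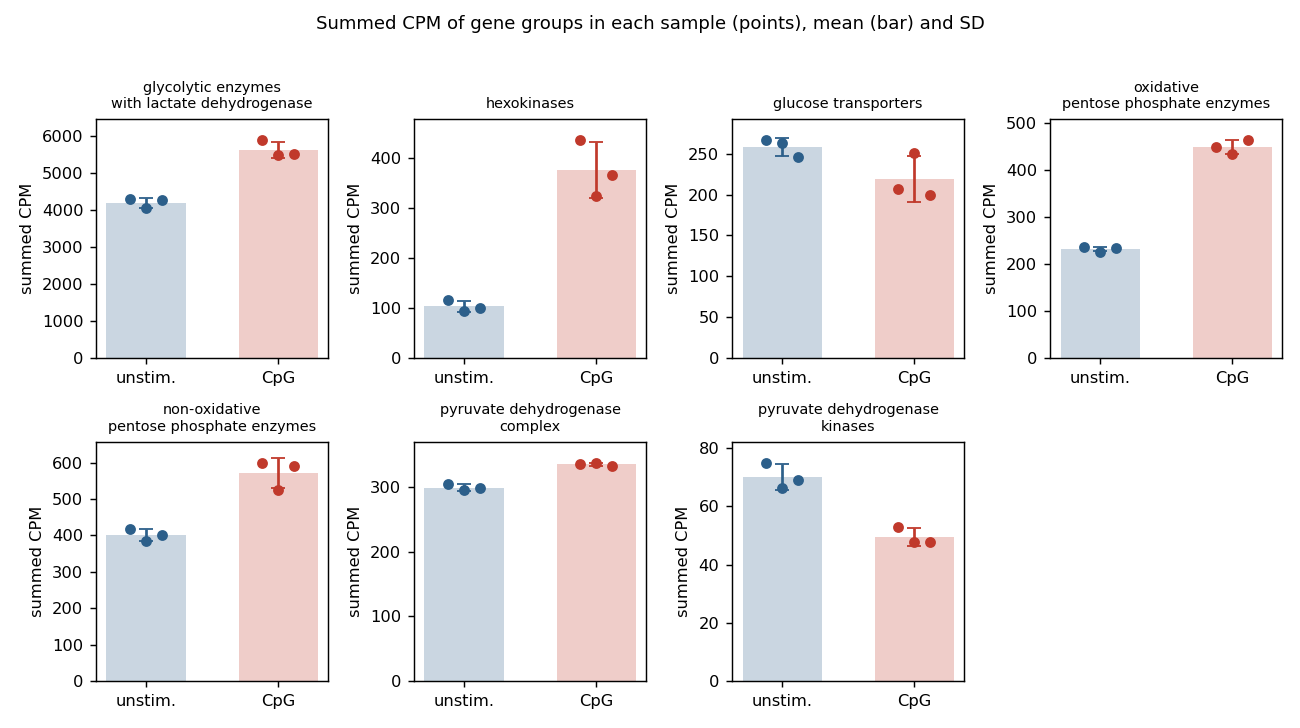
Summed CPM (vertical axes, from 0, each panel on its own scale) of 7 groups of members in each sample (points), with the mean (bar) and SD (error bar) of 3 unstimulated and 3 CpG-stimulated samples. The hexokinase sum differs most, by a ratio of 3.62, and of these 7 the glucose transporter sums alone overlap between the groups.

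Promoters of the members were searched for short motifs because the E-box CACGTG, bound by MYC and related factors, and the core of the hypoxia response element, ACGTG or GCGTG, are known from glycolytic genes. RefSeq promoters (GRCm38.p6, 250 bases before to 50 after each start) were matched for 35 of the 36 tested members, Slc2a3 being missing. The letters CACGTG, which read the same on both strands, stood in 5 of 35 genes (14.3%), and in 12.4% of all tested genes with a promoter. ACGTG, searched on both strands and part of every CACGTG, stood in 18 of 35 members (51.4%) against 30.4% of tested genes: in 8 of 18 increased and 7 of 10 decreased members. GCGTG was found in 24 of 35 (68.6%) against 57.1%. Ldha and Slc16a1, both increased, hold the E-box, as do Pdk2, which was decreased, and Pfkfb3 and Pfkm, which did not pass. Whether these motifs bear on the changes was not tested. The windows of the genes that passed are shown with the motif in capitals, 5′ to 3′ on the strand of the gene. They start with Ldha at chr7:46845647-46845676 (plus strand, motif at -145 from the start) and chr7:46845744-46845773 (plus strand, at -48), followed by Slc16a1 at chr3:104638452-104638481 (plus strand, at -200) and Pdk2 at chr11:95041480-95041509 (minus strand, at -126).
Ldha distal: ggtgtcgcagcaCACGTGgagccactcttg
Ldha proximal: cggcccagcctaCACGTGggttcccgcacg
Slc16a1: gcggcgccgggtCACGTGgcgggaaggggg
Pdk2: ctcgaggagagcCACGTGtcgaagcgcaag

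Other genes of the pathway, taken from a list of further isozymes, phosphatases and carriers, were counted in the same way. Of 48 listed, 47 were found and 29 tested, of which 11 were increased (37.9%), 10 decreased (34.5%) and 8 did not pass, shares near the 37.6% and 36.7% of all tested genes. Tigar, a fructose 2,6-bisphosphatase that diverts glucose to the pentose phosphate pathway, rose from 3.72, 3.66 and 3.62 to 5.29, 5.11 and 5.14 (log2FC 1.51, FDR = 1.88e-07), and Eno2, the neuronal enolase, from 3.09 ± 0.02 to 4.38 ± 0.34 (SD, n = 3; log2FC 1.29). Slc2a8, a transporter of internal membranes, read 3.15, 2.63 and 2.66 before and -2.01, -0.24 and -0.48 after CpG, and the pyruvate carrier Slc16a7 0.26, 0.19 and -0.09 before and -3.41, -3.28 and -1.54 after. These genes and Pfkfb1, at 0.78 ± 0.08 and -0.69 ± 0.31 (SD, n = 3), passed the filter only through the unstimulated samples, and the size of their decrease is uncertain. H6pd, the glucose 6-phosphate dehydrogenase of the endoplasmic reticulum, fell from 3.04, 2.87 and 3.09 to 1.30, 1.002 and 0.94 (log2FC -1.92, FDR = 2.67e-06), opposite to its cytosolic counterpart G6pdx. Slc2a9 (-1.55), Pfkfb2 (-1.03), Pdpr (-1.31) and Shpk (-1.30) also fell by a log2FC of more than 1. Pdpr encodes the regulatory subunit of pyruvate dehydrogenase phosphatase. Bpgm, which makes 2,3-bisphosphoglycerate in red cells, was at 6.09 and 6.10 in replicate 2 of the CpG-stimulated and unstimulated samples and at 3.78 to 4.37 in the others, as the erythroid markers were.

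Of 21 listed regulators of glycolytic genes, 18 were tested, of which 5 were increased (27.8%, background 37.6%) and 9 decreased (50%, background 36.7%). Myc, a transcription factor that drives glycolytic genes, rose from 9.96, 9.88 and 9.63 to 11.01, 10.70 and 10.91 log2 CPM, a log2FC of 1.05 (SE 0.10, FDR = 7.77e-06) without overlap, and its low-level relative Mycn had a log2FC of 1.36. Txnip, which limits glucose uptake through GLUT1, fell from 8.16, 8.41 and 8.50 to 5.19, 5.72 and 5.54 (log2FC -2.87, SE 0.13, FDR = 5.35e-08). Hif1a, the oxygen-regulated factor of glycolysis, named here after its values were seen, had a log2FC of -0.19 (FDR = 0.0153), and its partner Arnt fell by 1.11 on the log2 scale, from 7.15 ± 0.07 to 6.04 ± 0.03 (SD, n = 3). Genes that restrain HIF1 also fell, named likewise after their values were seen: Vhl, Egln1 and Egln2, which act in its degradation, had log2FC values of -0.88, -0.51 and -0.69, and the inhibitor Hif1an of -0.56. Egln3 had a log2FC of -0.18 that did not pass (FDR = 0.529), and Epas1 was under the filter. Ppargc1a, a coactivator of mitochondrial genes, went from 1.61 ± 0.06 to -1.90 ± 1.23 (SD, n = 3), with stimulated values around the limit of detection, so that it too passed the filter through the unstimulated samples.

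Of 15 listed targets of HIF1 outside glycolysis, 13 were tested, of which 5 were increased (38.5%, background 37.6%) and 7 decreased (53.8%, background 36.7%), with a median log2FC of -0.31. Adm (1.89) and Vegfa (1.33) rose, and Ddit4 (-1.90), Ndrg1 (-1.28), Ankrd37 (-1.20) and Bnip3l (-1.10) fell. Car12 passed the filter only through the CpG-stimulated samples, at 0.28 ± 0.79 against -2.11 ± 0.82 (SD, n = 3).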

How the data were processed

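RNA-seq values of 3 CpG-stimulated and 3 unstimulated B cell samples were used, grouped by their labels. Per the labels and the study's methods, the authors trimmed reads with Trim Galore 0.6.5, aligned them to mm10 with STAR 2.6.1a, counted them per gene with featureCounts (Subread 2.0.1), quantile normalized the counts and converted them with voom. The deposited values are log2 CPM, with 0.5 reads added to each gene, and no counts were used. The library kit was stranded; whether counting used the strand is not given in the sources used here. The deposited values also carry a shift by replicate number that differs between genes. In unstimulated samples without reads, Ldhb stood at -5.45, -4.69 and -5.32 but Trat1 at -5.83, -4.82 and -4.82. The shift cancels between 3 and 3 samples but enters values with 1 sample left out. Quantile normalization hides changes in total RNA per cell. Depth limits low genes: 10 reads are about -0.76 and 3 reads about -2.34, as the shift moves single values.

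The comparison of stimulated and unstimulated samples used the deposited log2 values and limma (version 3.58.1, run under R 4.3.3; a linear fit per gene and moderated variances with a trend, no block), with Benjamini-Hochberg adjustment over 11233 genes (FDR). In a check on simulated data, 197 of 197 tested genes with a true log2FC of 1.5 and 7 unchanged genes were called, in 10984 genes. It changed 200 of 11233 genes, without quantile normalization or a shift by replicate number. It therefore cannot tell how reliable calls of smaller changes are in these samples. Ratios of paired genes were compared with two-sided exact permutation tests (scipy 1.17.1); of 10 planned pairs, Eno1/Eno3 and Ldha/Ldhb were not compared, as Eno1 and Ldhb were under the filter. Samples of the same number varied together (correlations of deviations from group means 0.435, 0.224 and 0.300, against -0.281 to 0.0279 for other pairs), so the numbers were treated as pairs in an alternative with a replicate block; the shift by number can also give this.

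Transcript lengths, coordinates and shared 75-base stretches were taken from GENCODE M21 (GRCm38, the build of mm10), which may differ from the annotation used for counting. Older symbols were matched through RefSeq. Values in every sample are given for members past a log2FC of 1 and for their partners in the pairs; others and Pgam1 were added after the values were seen. The members, lists and tests were chosen with earlier results of these data known. Alternatives covered the filter, the scale, the variance model, the centring, the block and each sample left out.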

Additional observations from a re-analysis of the deposited data

How the results depend on the processing

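Over 16 alternatives, the counts of members held within 1.5 times their size: 16 to 19 increased, 10 to 12 decreased, 4 to 6 past a log2FC of 1 and 2 to 3 under -1. The same settings called 23.8% to 39.4% of all tested genes increased and 23.4% to 38.5% decreased. Past the larger change, the shares were 11.2% to 16.2% and 11.1% to 16.4%. Of 575 values of the 36 members, 558 kept direction and call, 9 in Rpe and Dld lost the call, 5 in Pfkp, Pfkfb3 and Eno3 gained it, and 3 reversed: Pdk1 was at 0.0307 without CpG-stimulated replicate 2 and at 0.0403 without unstimulated replicate 1, and Pfkm at -0.115 without unstimulated replicate 2, in a range of -0.11 to 0.04 and -0.12 to 0.25 with each sample left out. With the replicate block, 19 members were increased and 12 decreased (background 39.1% and 38.2%), through Pfkfb3 and Pfkp, and no other call changed. Leaving out replicate 2 of both groups was chosen after seeing the data. The differences of the 8 log2 ratios kept their sign with each sample left out and on log2(CPM + 1), on which that of Pdk1 to Pdk2 was 2.15 in place of 3.36 and that of Aldoa to Aldoc 0.97 in place of 1.57, as this scale shrinks low genes.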
